A study of Mus musculus with 4 samples.

Results

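Glutathione transferases join the tripeptide glutathione to reactive compounds, among them drugs, carcinogens and the aldehydes left by lipid peroxidation. The soluble enzymes form classes named by Greek letters (alpha, mu, omega, pi and theta), and a separate family of membrane proteins, the microsomal enzymes, does related chemistry in the endoplasmic reticulum and outer mitochondrial membrane. Many of these genes are induced by the transcription factor NRF2 (Nfe2l2), and in skin they belong to the defence of the epidermis against oxidants and chemicals. The 10 genes described here were taken by name: Gsta4 (alpha), Gstm1, Gstm2 and Gstm5 (mu), Gsto1 (omega), Gstp1 (pi), Gstt1 (theta) and the microsomal Mgst1, Mgst2 and Mgst3. They are 10 of 31729 genes listed in the files, and 9 of them were among the 11969 genes tested, since Gstt1 stayed under the minimum of 1 FPKM in 2 libraries.

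The libraries hold mRNA of squamous cell carcinoma stem cells sorted from primary skin tumours of mice. Both groups came from C57BL/6 X FBV mice and carried TetO-Hras, a tetracycline-controlled Hras oncogene, together with LV-rtTA3-TGF-beta reporter, which supplies the tetracycline-dependent activator and an mCherry reporter of transforming growth factor beta (TGF-β) signalling. Cells negative for other lineages were taken by integrin α6 and CD44 and divided into reporter negative cells, labelled as lacking TGF-β signalling, and reporter positive cells, labelled as having it. Each fraction gave 1 library in each of 2 experiments, so n = 2 per group. The sources used here do not give age, sex, the duration of Hras induction or how many animals made up a library. The question of the comparison is how tumour stem cells with and without TGF-β signalling differ.

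Values are FPKM, fragments divided by transcript length and by depth, as the authors estimated them, so levels of different genes can be set side by side. A difference is the reporter positive minus the reporter negative mean of log2(FPKM + 1) with its SE, and a call is an adjusted p under 0.05 in limma over all 11969 genes. Aligned bases, estimated from the median ratio of coverage to FPKM over transcripts, came to 3.13 to 3.75 gigabases per library. All 4 keratinocyte markers with a value were present in every library, while Krt5 and Krt14 were not analysed here. Cdh1 stood at 61.7 and 84.3 FPKM in negative against 78.5 and 92.5 FPKM in positive libraries, Dsp at 271 and 361 against 396 and 479, Trp63 at 102 and 128 against 72.05 and 73.8, and Epcam at 45.9 and 51.0 against 29.4 and 25.5 FPKM. None of the 4 passed, and with the block Epcam was lower (adjusted p = 0.0566, and 0.0433 with it). Of 6 leukocyte markers Ptprc, Cd3e, Adgre1 and Itgam were at 0.502 FPKM or less, Cd68 was at 2.88 and 2.44 against 4.12 and 4.69 FPKM, and Lyz2 at 2.25 and 3.93 against 2.38 and 6.58 FPKM. Of the genes of the gate, Itga6 stood at 331 and 410.4 FPKM in reporter negative and 181 and 205 FPKM in positive libraries (adjusted p = 0.0565, and 0.0190 with the block), and Cd44 at 81.3 to 112 FPKM in all 4. The median difference of all genes tested was -0.18, and median-of-ratios scaling moved it to 0.03, so that a positive difference grows and a negative one shrinks under that scaling. That scaling changed the split of called genes from 305 higher and 302 lower to 457 and 204, and quantile normalization gave 407 and 252.

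Gsta4 rose and Gstm2 fell in the reporter positive fraction, and Gsta4 had the largest difference of the tested members. Among the 9 tested members 2 passed, Gsta4 higher and Gstm2 lower, where 5.07% of all genes tested passed (2.55% higher and 2.52% lower). With the experiment as a block 5 passed, Gsta4 and Gsto1 higher and Gstm1, Gstm2 and Mgst1 lower, where 10.4% of all genes did (4.09% higher and 6.36% lower). Both reporter positive libraries lay above both negative ones for 2 members, as they did for 15.3% of all genes, and below them for 5 members, as they did for 42.6%. The median difference of the 9 was -0.35. The members were chosen with earlier results of these data known, so these counts beside the shares are a description and not a test. In bulk RNA of a sorted fraction, fewer cells of a type and less RNA per cell cannot be told apart, and this holds for every difference below.

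**Figure D1:**
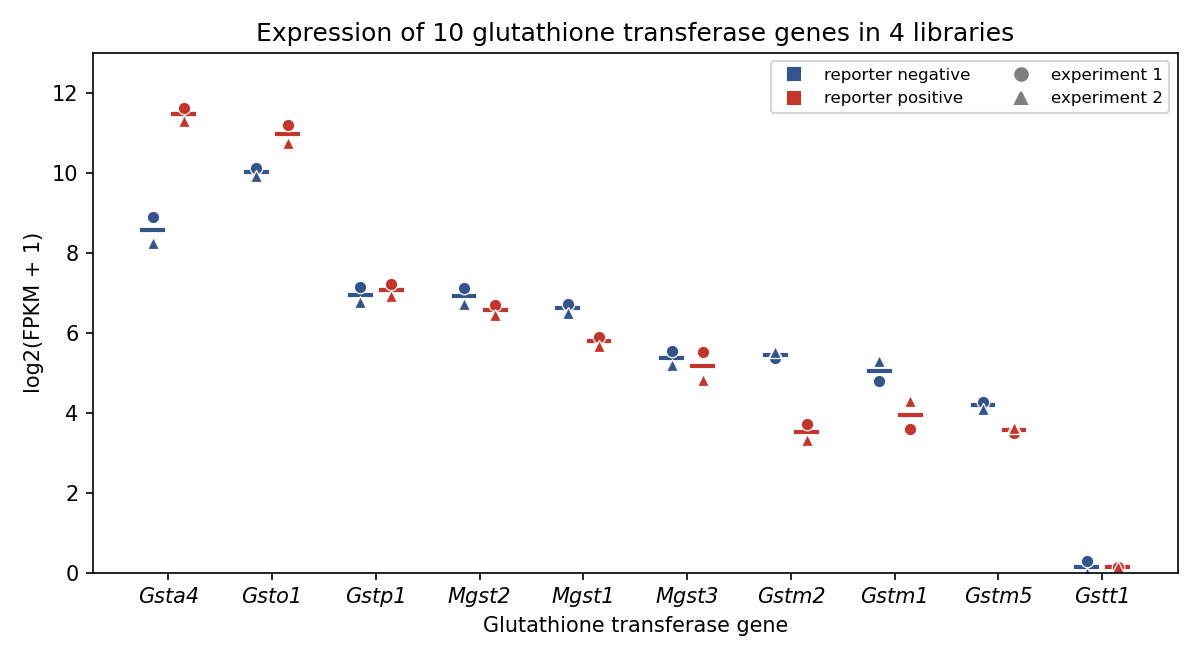
Expression of the 10 genes as log2(FPKM + 1) in reporter negative (blue) and reporter positive (red) libraries, with circles for experiment 1, triangles for experiment 2 and bars for the mean of the 2 libraries. Gsta4 and Gsto1 stand above the other 8 genes in every library, and Gstt1 lies close to 0 in all 4.

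Gsta4 encodes the alpha class enzyme with a preference for 4-hydroxynonenal, a toxic aldehyde of lipid peroxidation. It lies on chromosome 9 (78039773 to 78057155, plus strand, mm9; ENSMUSG00000032348), and all of its FPKM was on the one listed transcript, ENSMUST00000034903. Experiments 1 and 2 gave 477 and 301 FPKM in reporter negative cells, and 3163 and 2518 FPKM in reporter positive cells. The groups did not overlap, and the lowest positive library was several times the highest negative one. Gsta4 rose from 389 ± 124 to 2841 ± 455 FPKM (mean ± SD, n = 2), a log2 difference of 2.89 ± 0.29 (limma adjusted p = 0.0186, and 0.00585 with the block). Within experiments the positive library held 6.64 and 8.37 times the FPKM of the negative one. By level Gsta4 ranked 251 and 348 among the genes tested in the negative libraries, and 11 and 16 in the positive ones. In 3 of the 4 libraries its FPKM lay outside the interval the files give for it, most clearly in the reporter negative library of experiment 2, where 301 FPKM stands beside an interval of 243 to 256. With the centre of the interval in place of the FPKM the difference was 3.05 (adjusted p = 0.0268).

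Close relatives can share reads, so the sequences of the alpha genes were compared. The first 90 coding bases of 3 of them follow (GENCODE M21 transcripts), shown because they tell how far Gsta4 differs from the other 2 there. Capitals mark a base that neither of the other 2 sequences has at that place.
Gsta4: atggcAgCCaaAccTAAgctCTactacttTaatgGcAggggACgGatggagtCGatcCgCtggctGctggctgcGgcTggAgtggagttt
Gsta1: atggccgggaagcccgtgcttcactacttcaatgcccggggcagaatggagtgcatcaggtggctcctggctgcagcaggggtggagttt
Gsta2: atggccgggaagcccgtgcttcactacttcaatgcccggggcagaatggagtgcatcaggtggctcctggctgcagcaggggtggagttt
Gsta4 had 23 bases of its own in this stretch, whereas Gsta1 and Gsta2 had the same letters throughout. Over the whole coding sequence Gsta4 matched Gsta1 at 65.5% and Gsta2 at 66.1% of aligned positions, against 97.6% between Gsta1 and Gsta2. Of the 928 windows of 50 bases in the Gsta4 transcript, 0 occurred in a transcript of another gene, on either strand. Of those of Gsta1 and Gsta2, 89.7% and 64.2% did. Windows of Gsta1 occurred most in Gm3776 (82.9%) and next in Gsta2 (44.6%). Those of Gsta2 occurred in Gsta1 (44.8%) and in Gm10639 (44.5%). Only exact matches to GENCODE M21 transcripts were counted, and the read length is not given. How the authors' reads were assigned is therefore not settled by this comparison.

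Whether the near-identical pair follows Gsta4 is not settled by these values. Gsta1 stood at 14.1 and 6.002 FPKM without the reporter signal, and with it at 0 and 196 FPKM. Gsta2 was at 3.83 and 3.63 against 0 and 74.9 FPKM. In experiment 2 both were higher in the positive library, as Gsta4 was. Both were listed at 0 in that of experiment 1, where the file nonetheless marks a transcript of each as fully covered by reads, so this 0 can be a failed estimate. Neither passed (adjusted p = 0.930 and 0.823). Gsta3, on chromosome 1, stood at 2.29 and 4.18 against 8.48 and 8.41 FPKM without overlap, and passed only with the block (adjusted p = 0.0810, and 0.0498 with it).

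Gsto1 encodes an omega class enzyme, which has a cysteine in its active site and reduces dehydroascorbate and methylated arsenic compounds. It lies on chromosome 19 (47929460 to 47939280, plus strand; ENSMUSG00000025068). Its level was 1120.15 and 974 FPKM in the negative libraries against 2336 and 1732 FPKM in the positive ones, without overlap. The log2 difference of 0.94 ± 0.24 did not pass (adjusted p = 0.0937) but did with the block (0.0221) and with quantile normalization (0.0396). The ratio was 2.09 in experiment 1 and 1.78 in experiment 2. It was the most abundant member in both negative libraries and second to Gsta4 in both positive ones. In both positive libraries its FPKM lay just below the interval of the files, 2353 to 2397 and 1739 to 1779, and with the centre of the interval the difference was 0.95 (adjusted p = 0.104). Like Gsta4, its transcript ENSMUST00000026050 shared none of its 50-base windows with another gene.

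Of 5 markers of differentiated keratinocytes tested, 3 were higher in reporter positive cells (Ivl, Tgm1 and Sprr1a). Krt10, at 629 and 848 against 504 and 838 FPKM, and Lor, at 4.68 and 1.58 against 2.33 and 4.08 FPKM, did not pass (adjusted p = 0.779 and 0.910). The 5 summed to 955 and 955 FPKM in the negative libraries and to 2967 and 3202 FPKM in the positive ones, of which Sprr1a alone gave 296 and 89.2 against 2331 and 2209 FPKM. The part of this in the differences of Gsta4 and Gsto1 was not tested.

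**Figure D2:**
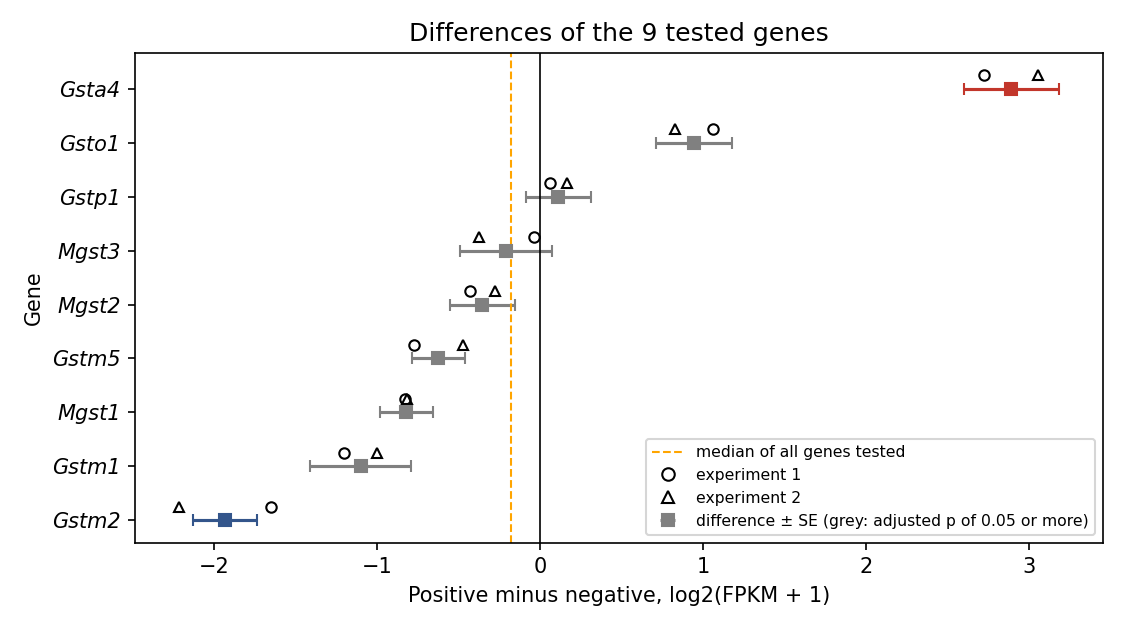
Difference between reporter positive and negative libraries on the log2(FPKM + 1) scale for the 9 tested genes, as squares with SE, coloured where the adjusted p was under 0.05, with the difference of each experiment as an open circle or triangle above. Gsta4 lies at 2.89 and Gstm2 at -1.94, and the dashed line at -0.18 is the median of all genes tested.

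The mu class genes form a cluster on chromosome 3. Of the 3 members there Gstm2 passed as lower in reporter positive cells, Gstm1 passed only with the block and Gstm5 in neither fit. Mu class enzymes conjugate a broad range of electrophiles, including epoxides. Gstm2 (107784620 to 107789371, minus strand; ENSMUSG00000040562) was at 40.7 and 45.1 FPKM in the negative libraries and at 12.2 and 8.92 FPKM in the positive ones. It fell by 1.94 ± 0.20 on the log2 scale (adjusted p = 0.0186, and 0.0150 with the block), from 42.9 ± 3.14 to 10.6 ± 2.35 FPKM. The negative library held 3.32 times the positive one in experiment 1 and 5.06 times in experiment 2.

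Gstm1 (107815173 to 107820891, minus strand; ENSMUSG00000058135) was at 26.7 and 38.2 against 11.0 and 18.6 FPKM. All values of the positive fraction lay below those of the negative one, and in each fraction experiment 2 gave the higher value. The log2 difference of -1.10 ± 0.31 passed only with the block (adjusted p = 0.115, and 0.0228 with it). Gstm5 (107698739 to 107701604, plus strand; ENSMUSG00000004032), a more distant mu gene, was at 18.4 and 16.0 against 10.3 and 11.2 FPKM. Its groups did not overlap either, but the difference of -0.63 ± 0.16 passed in neither fit (adjusted p = 0.103, and 0.0809 with the block). All FPKM of the 3 genes lay on 1 transcript each, ENSMUST00000004140 for Gstm1, ENSMUST00000012348 for Gstm2 and ENSMUST00000004134 for Gstm5. In every library their values lay inside the interval of the files, whose half-width was 5.99% to 12.5% of the FPKM. That interval holds no spread between libraries.

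The neighbour Gstm4 was listed in the other direction. The negative libraries list it at 0 and 0 FPKM and the positive ones at 4.44 and 3.64 FPKM, and it was called higher (adjusted p = 0.0144). In 1 of the 2 libraries at 0 the file marks a transcript as fully covered by reads, so the call can rest on a failed estimate. Gstm6 was listed at 4.27 FPKM in the positive library of experiment 2 and at 0 in the other 3, each with a covered transcript, and Gstm3 and Gstm7 were listed at 0 in all 4.

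The first 90 coding bases of Gstm1, Gstm2 and Gstm4 follow, which have coding sequences of one length and can be compared without gaps. They are shown because the values of the mu genes can depend on assigning reads to the right copy, which was not tested. Capitals again mark bases found in neither of the others.
Gstm1: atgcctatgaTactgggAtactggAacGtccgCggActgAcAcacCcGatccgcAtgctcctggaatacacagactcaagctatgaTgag
Gstm2: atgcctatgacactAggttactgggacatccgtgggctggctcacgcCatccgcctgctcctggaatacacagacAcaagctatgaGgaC
Gstm4: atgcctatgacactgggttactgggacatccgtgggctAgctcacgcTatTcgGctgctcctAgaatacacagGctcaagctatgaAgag
Gstm1 had 12, Gstm2 had 5 and Gstm4 had 7 such bases. Coding identity was 85.9% between Gstm1 and Gstm2, 82.6% between Gstm2 and Gstm4, and 69.6% between Gstm1 and Gstm5. Of the 50-base windows of Gstm1, 23.1% also occurred in transcripts of other genes, most of them in the pseudogene Gstm2-ps1, with 9.36% for Gstm2, 14.4% for Gstm5 and 0% for Gstm4. Those of Gstm5 were shared with 4933431E20Rik, an antisense gene that overlaps its start, and the sources used here do not say whether reads were counted by strand. Values of Gstm1, Gstm2 and Gstm5 are uncertain by what the authors' counting gave to those genes.

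Fibroblast markers were at low levels in both fractions. Of 5 tested 0 passed in limma, while 2, Col1a1 and Col1a2, had an unadjusted p under 0.05, both lower in the positive fraction. Among all 11969 genes tested 3062 had such a p. The sum of the 5 with Pdgfra was 26.9 and 41.1 FPKM in the negative and 12.8 and 27.5 FPKM in the positive libraries. Endothelial markers summed to 3.395 and 9.46 against 2.45 and 2.62 FPKM. Both sums were lower in the positive library of each experiment, in the direction of Gstm1, Gstm2, Gstm5, Mgst1, Mgst2 and Mgst3. Of all 11969 genes tested 6484 were also lower in both experiments. Within the fibroblast list this held for Col1a1, Col1a2 and Col3a1. Dcn, Lum and Pdgfra were lower in experiment 1 but higher in experiment 2. There Dcn was at 2.61 in the negative against 3.61 FPKM in the positive library, and Lum at 1.53 against 1.56 FPKM. Leukocyte markers summed to 5.57 and 6.99 against 6.97 and 12.6 FPKM, higher in the positive library of each experiment. Of 2 tested 0 passed, and the unadjusted p in limma was 0.0361 for Cd68 and 0.496 for Lyz2. The part of these sums in the differences of the members was not tested.

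Gstp1 encodes the pi class enzyme, which is abundant in many carcinomas and also binds the stress kinase JNK. It lies on chromosome 19 (4035411 to 4037921, minus strand; ENSMUSG00000060803). It was at 141 and 108 FPKM in the negative and 147 and 121 FPKM in the positive libraries, so the groups overlapped and each fraction was higher in experiment 1. The difference of 0.11 ± 0.20 did not pass (adjusted p = 0.763, and 0.499 with the block). Its FPKM lay above the interval of the files in all 4 libraries, and all of it was on ENSMUST00000042898, which GENCODE M21 does not list and which was placed here by its exons. Its neighbour and near copy Gstp2 stood at 30.8 and 20.02 against 28.6 and 21.6 FPKM, also overlapping and also higher in experiment 1 in each fraction.
Gstp1: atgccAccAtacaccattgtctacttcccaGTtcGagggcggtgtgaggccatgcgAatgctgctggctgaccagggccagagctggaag
Gstp2: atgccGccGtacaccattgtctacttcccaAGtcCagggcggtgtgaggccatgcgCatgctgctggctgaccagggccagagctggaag
These first 90 coding bases, shown because reads of the pair are hard to tell apart, differ at the 6 places in capitals, and over the whole coding sequence the genes matched at 98.1% of positions. Of the 50-base windows of the Gstp1 transcript in M21, 62.3% also occurred in Gstp2, so how reads were divided between the 2 genes is uncertain. Gstp3 stood at 14.8 and 12.9 against 7.55 and 6.80 FPKM, on assembled transcripts alone in both libraries of experiment 1, and was lower only with the block (adjusted p = 0.0639, and 0.0437 with it).

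The microsomal members are small membrane proteins. Mgst1, which protects membranes from lipid peroxides, lies on chromosome 6 (138088837 to 138105276, plus strand; ENSMUSG00000008540). Summed over its transcripts it was at 105 and 88.7 FPKM in the negative and 58.8 and 49.96 FPKM in the positive libraries, without overlap. The difference of -0.82 ± 0.16 passed with the block (adjusted p = 0.0623, and 0.0244 with it), and the differences of the experiments were -0.83 and -0.82. The transcript ENSMUST00000008684, the one above 0 in every library, stood at 48.8 and 40.2 against 22.8 and 19.2 FPKM. The other reference forms were not estimated alike: ENSMUST00000140932 was at 56.3 FPKM in the negative library of experiment 1 and 0 in that of experiment 2, where ENSMUST00000120302 had 27.2 FPKM and an assembled form 21.3. Division of the reads among forms therefore differed between the negative libraries, while their sum and the common form were both lower in the positive fraction.

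Mgst2, which also acts as a leukotriene C4 synthase, was at 139 and 104 against 103 and 85.6 FPKM (chromosome 3, 51464282 to 51486597). Its log2 difference was -0.35 ± 0.20 (limma adjusted p = 0.330). The higher positive library came close to the lower negative one, at 103 beside 104 FPKM. Mgst3, a related peroxidase, was at 45.9 and 35.4 against 44.6 and 27.1 FPKM (chromosome 1, 169302097 to 169323972; difference -0.21 ± 0.28, adjusted p = 0.690), and its groups overlapped. In the positive library of experiment 1, 20.5 of the 44.6 FPKM lay on an assembled form, and the reference transcript alone was at 24.1 FPKM there. With median-of-ratios scaling the Mgst3 difference was 0.02, so its sign is not fixed. The transcripts of Mgst1, Mgst2 and Mgst3 shared no 50-base window with another gene.

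Gstt1, the theta class member that acts on small halogenated compounds, was close to absent at this depth. Negative libraries gave 0.220 and 0 FPKM and positive ones 0.0944 and 0.105 FPKM (chromosome 10, 75246558 to 75261329), with intervals that reach down to 0. No difference is given.

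Set against each other, the members changed in make-up as well as in sum. Their FPKM added up to 2113 and 1710.2 in the negative libraries and to 5885 and 4573 in the positive ones, without overlap. Gsta4 made up 22.6% and 17.6% of that sum in the negative and 53.7% and 55.1% in the positive libraries, and Gsto1 53.0% and 57.0% against 39.7% and 37.9%. Without these 2 genes the sum was 517 and 435 FPKM in the negative and 387 and 322 FPKM in the positive libraries. The 3 mu genes together stood at 85.7 and 99.3 against 33.6 and 38.7 FPKM. These shares are descriptions with no test, and the share of one gene falls when another rises.

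**Figure D3:**
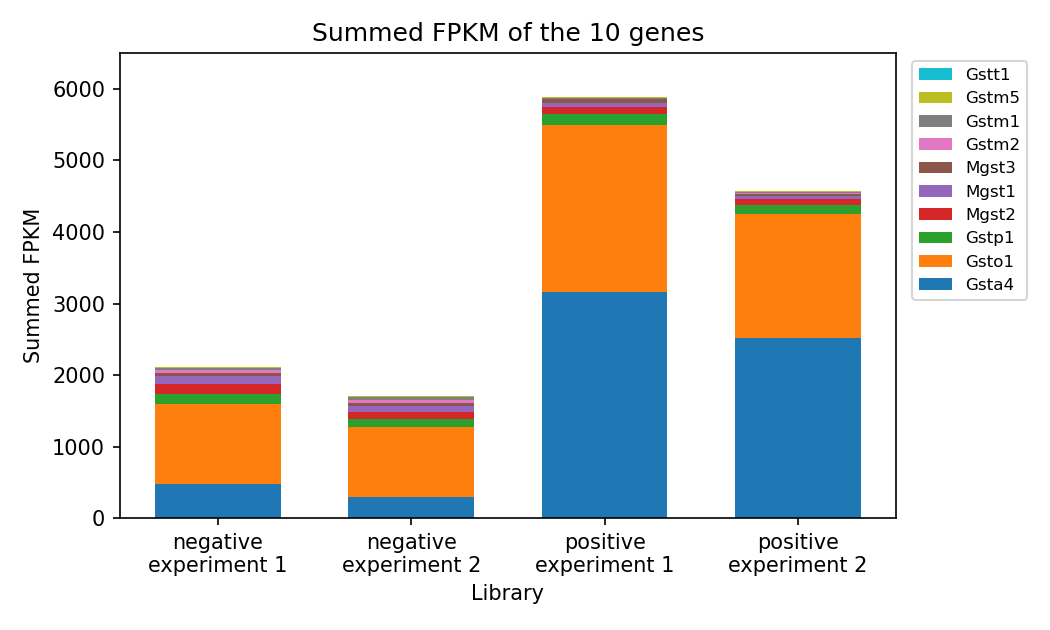
Summed FPKM of the 10 genes in each library, with 1 colour per gene. The reporter positive sums of 5885 and 4573 FPKM stand above the negative sums of 2113 and 1710.2 FPKM, and Gsta4 and Gsto1 together make up 74.6% to 75.6% of the negative and 93.0% to 93.4% of the positive sums.

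The order of levels was the same in all 4 libraries for Gstp1, Mgst2 and Mgst1, in this order after Gsta4 and Gsto1, and for Gstt1, the last. Mgst3, Gstm2, Gstm1 and Gstm5 filled the places between Mgst1 and Gstt1. In the negative fraction the ranges of neighbours overlapped for Gstp1 and Mgst2 (108 to 141 beside 104 to 139 FPKM), for Mgst2 and Mgst1 (88.7 to 105 FPKM), for Mgst3 and Gstm2 and for Mgst3 and Gstm1. In the positive fraction they overlapped for Gstm1, Gstm2 and Gstm5, whose values lay between 8.92 and 18.6 FPKM.

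Each library weighed on the calls. With any single library left out no member kept its call. The adjusted p of Gsta4 then ran from 0.0523 without reporter negative replicate 1 to 0.0963 without reporter negative replicate 2 and, after rounding, also without reporter positive replicate 1, with differences of 2.56 to 3.22. For Gstm2 it ran from 0.0605 without reporter positive replicate 1 to 0.106 without reporter negative replicate 2, with differences of -2.14 to -1.73. Such a fit assumes that a fraction with 1 library left spreads as the other fraction does.

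**Figure D4:**
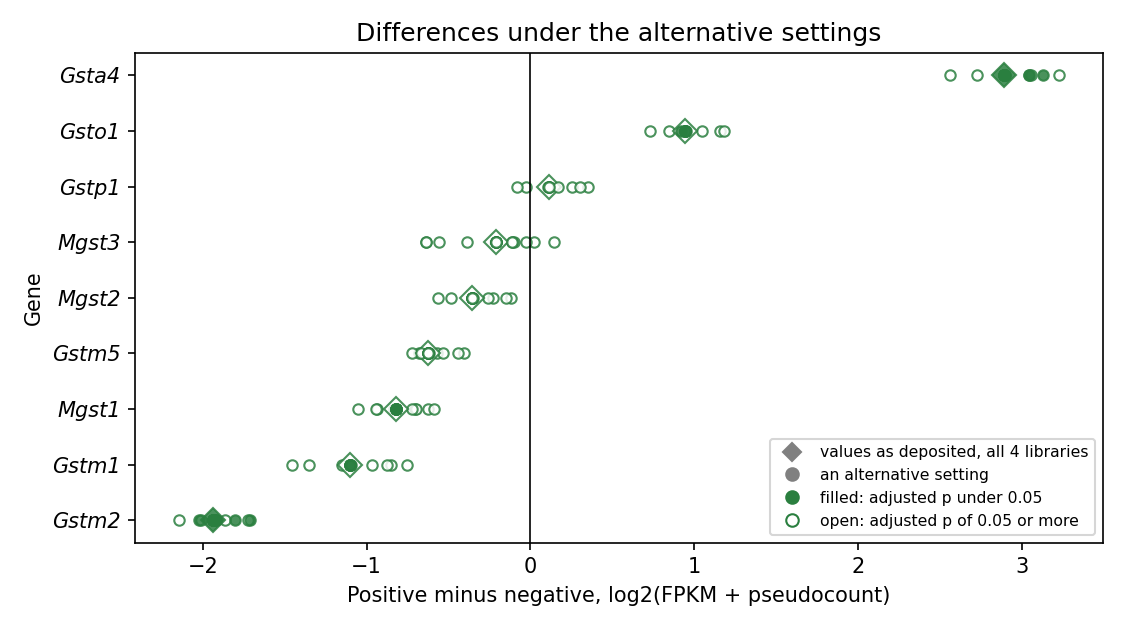
Difference of each tested gene on the log2(FPKM + pseudocount) scale with the values as deposited (diamonds) and under the alternative settings (circles), filled where the adjusted p was under 0.05. Gsta4 and Gsto1 lie right of 0 and Gstm1, Gstm2, Gstm5, Mgst1 and Mgst2 left of 0 under all of them, while Gstp1 and Mgst3 lie on both sides.

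Promoters of the members were searched for a form of the core of the antioxidant response element, which NRF2 binds. The form was TGACNNNGC, on either strand. RefSeq windows on GRCm38.p6, cut to the 250 bases before the start site, were at hand for 9 of the 10 members (11 windows), and none for Gsta4. The motif was found in 2 of the 11, those of Gstm5 and Mgst1, and in 10.2% of 32851 windows of all genes. Both windows are printed from 5′ to 3′ on the strand of the gene, with the match in capitals.
Gstm5, chr3:107895604-107895853, plus strand: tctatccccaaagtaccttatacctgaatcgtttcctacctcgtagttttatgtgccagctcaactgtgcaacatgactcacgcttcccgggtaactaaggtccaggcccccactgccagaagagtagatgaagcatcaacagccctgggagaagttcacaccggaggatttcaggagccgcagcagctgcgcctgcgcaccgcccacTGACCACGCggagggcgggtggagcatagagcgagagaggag
Mgst1, chr6:138140277-138140526, plus strand: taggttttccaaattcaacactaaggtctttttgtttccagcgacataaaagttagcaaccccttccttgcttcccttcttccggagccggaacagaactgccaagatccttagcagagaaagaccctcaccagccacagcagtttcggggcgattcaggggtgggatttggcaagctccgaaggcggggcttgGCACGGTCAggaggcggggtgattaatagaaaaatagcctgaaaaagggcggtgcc
In Mgst1 the match lay on the opposite strand and in a window that is 1 of 2 for this gene. Neither gene was higher in reporter positive cells, and the part of NRF2 in any difference was not tested. A match is a string of letters and not a measured site. Other forms of the core were not searched for, so a window without a match can hold them.

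Other genes of glutathione metabolism were taken from lists and are described by counts, beside the 5.07% of all genes that passed. With the block 10.4% of all genes passed, 4.09% higher and 6.36% lower. Of 15 genes of glutathione synthesis, cystine uptake and NADPH supply, 2 passed, both higher (median difference 0.17, against -0.18 for all genes). They were Me1, the malic enzyme, at 4.93 and 6.499 against 17.6 and 16.8 FPKM (adjusted p = 0.0318), and G6pdx, the first enzyme of the pentose phosphate pathway, at 75.6 and 75.2 against 154 and 128 FPKM (adjusted p = 0.0478). Both supply the NADPH that keeps glutathione reduced. With the block 4 were higher and 1 lower. Gclc and Gclm, the subunits of the rate-limiting enzyme of glutathione synthesis, were not among them.

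Of 18 peroxidases and other enzymes that use glutathione 1 passed (median -0.05). It was Glrx, glutaredoxin, which removes glutathione from proteins, at 57.1 and 33.9 against 214 and 405 FPKM (log2 difference 2.71 ± 0.40, adjusted p = 0.0363). The block gave 3 higher and 3 lower. Of 11 genes of conjugate export and breakdown 2 passed in opposite directions (median -0.06). Abcg2, a drug efflux transporter, fell from 18.7 and 30.2 to 5.14 and 6.30 FPKM (adjusted p = 0.0360). Kyat1, a cysteine conjugate lyase, rose from 11.7 and 12.3 to 29.8 and 25.7 FPKM (adjusted p = 0.0333). With the block 1 was higher and 3 were lower.

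Of 13 genes of the antioxidant response 2 passed, both higher (median 0.06), and with the block 3 were higher. Srxn1, sulfiredoxin, rose from 19.9 and 20.6 to 50.4 and 57.3 FPKM (adjusted p = 0.0187), and Hmox1, haem oxygenase, from 23.6 and 19.4 to 50.04 and 56.7 FPKM (adjusted p = 0.0306). Of 12 other detoxification genes 2 passed, both higher (median 0.38), and with the block 3. Sult2b1, a sterol sulfotransferase of the epidermis, rose from 60.6 and 43.2 to 243 and 214 FPKM (adjusted p = 0.0177), and Cbr3, a carbonyl reductase, from 42.7 and 43.9 to 89.5 and 91.7 FPKM (adjusted p = 0.0258).

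**Figure D5:**
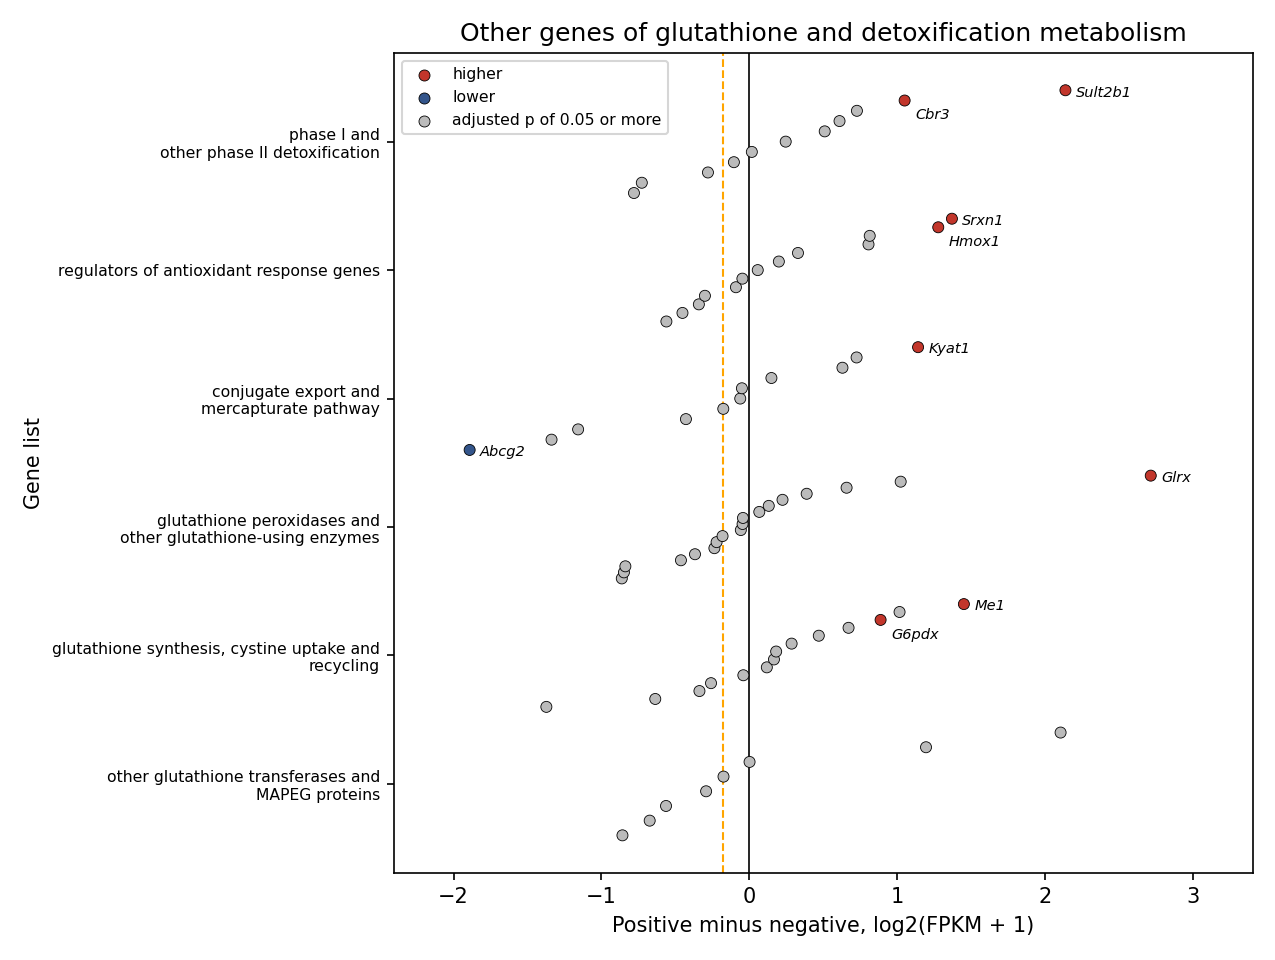
Difference on the log2(FPKM + 1) scale of each tested gene of 6 lists that was above 0 in all 4 libraries, red where higher and blue where lower at an adjusted p under 0.05, grey otherwise, with the median of all genes as a dashed line. Glrx at 2.71 and Sult2b1 at 2.14 are the highest named points and Abcg2 at -1.89 the lowest.

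Among 13 tested genes of other transferases and of the MAPEG family, to which the microsomal members belong, 2 passed, Gstm4 and the prostaglandin E synthase Ptges, and both rest on values listed at 0 in the negative libraries. For Ptges the negative libraries list 0 and 0 FPKM and the positive ones 114 and 139 FPKM, with a covered transcript in both libraries at 0. Hpgds, the sigma class transferase that makes prostaglandin D2, was at 5.79 and 2.16 against 21.3 and 16.7 FPKM and passed with the block (adjusted p = 0.0584, and 0.0197 with it). Gstk1 (12.8 and 12.7 against 7.28 and 7.94 FPKM) and Gstz1 (12.7 and 11.6 against 7.70 and 8.08 FPKM) did not pass, though their groups did not overlap. Gstt3 was at 2.84 and 4.25 against 1.34 and 0 FPKM, with a covered transcript in the library at 0, and Gstcd at 6.31 and 8.10 against 5.84 and 5.48 FPKM. Gsto2, Gstt2, Gstt4, Alox5ap and Ltc4s were at 1.15 FPKM or less in every library.

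Among all genes tested, the 3 whose centred log2(FPKM + 1) lay nearest to that of Gsta4 over the 4 libraries were Gm94, Tmem45b and Tubb2a, at Euclidean distances of 0.18, 0.20 and 0.35. Gm94 was at 148 and 99.7 against 1101 and 925 FPKM, Tmem45b at 5.42 and 2.91 against 40.3 and 37.9 FPKM, and Tubb2a at 26.1 and 15.0 against 150 and 167 FPKM. With 4 libraries such likeness describes these libraries only.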

How the data were processed

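Sorted cells were the source of RNA, and the Illumina libraries were of mRNA, per the labels' protocols. Alignment by the authors was with TopHat and estimation of transcripts with Cufflinks, on mm9, per the submitters' processing notes; the sources used here give no version, read length or annotation release. The deposited values are FPKM per transcript, with the files' own interval, which holds no spread between libraries. Whether the experiments drew on separate animals is not in the labels, so p-values measure the spread between these libraries, which may be technical.

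Only transcripts of at least 200 exonic bases were kept; shorter ones held 95.1% to 98.9% of all FPKM. Of 96734 reference transcripts 84047 were named by identifier through GENCODE M21 (names only, another build) and 5138 through the files' gene identifiers. Others went to the gene holding at least 50% of their exonic length on the same strand. FPKM was summed per gene with Python 3.11.15 and pandas 2.3.3. A gene was tested if 2 or more libraries reached 1 FPKM, with limma 3.58.1 in R 4.3.3 (intensity trend, two-sided) on log2(FPKM + 1), with Benjamini-Hochberg adjustment over 11969 genes. The fit was tested on simulated data. An exact permutation test of 2 against 2 was not used.

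The titles number the experiment, which was taken as a shared batch and used as a block in an alternative. The experiment 2 minus 1 differences of the fractions correlated with r 0.174 across 11969 genes, and 0.306 across the 11496 above 0 in every library. Members, lists and tests were chosen with earlier results of these data known. Named genes were the 10 members, other transferases above 0, up to 4 genes per other list that passed with the smallest p, and the 3 nearest profiles to the member with the smallest p. Gclc and Gclm are named outside the rule, after their values were seen.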

Additional observations from a re-analysis of the deposited data

Results flagged for a closer look

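The differences of 4 tested genes related to the members had opposite signs in the 2 experiments, on the log2(FPKM + 1) scale, and this contrast between experiments was not tested. Gsta1 was at -3.92 in experiment 1 and 4.81 in experiment 2, and Gsta2 at -2.27 and 4.03. In both genes the reporter positive library of experiment 1 was listed at 0 while a transcript was marked as fully covered by reads. Alox5ap was at -0.49 and 0.14, with a level near 1 FPKM. Gstp2 was at -0.10 and 0.10. The 9 tested members had the same sign in both experiments, 3 positive and 6 negative. So had 2483 (positive) and 6484 (negative) of all 11969 genes tested. For Mgst3 and Gstp1 the difference in experiment 1 was close to 0, at -0.04 and 0.06.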

How the results depend on the processing

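With the values as deposited 607 genes passed, Gsta4 and Gstm2 among them. With the replicate block 1250 genes and 5 members passed, and with the interval centre and the block, chosen after seeing the data, 1019 genes and 5 members. Without genes listed at 0 the count was 1209 and with robust variance estimation 973, with 3 members in each. With no filter on low values 4 genes passed. With only transcripts named by identifier through GENCODE M21 kept 75 passed, and with each gene given by its top transcript 53. Keeping only those named transcripts drops assembled transcripts, and also reference transcripts named by gene identifier or placed by exons. In these 3 settings 0 members passed in limma, and 6 of 10, 6 of 8 and 7 of 9 tested members had an unadjusted p under 0.05. The share of all genes with such a p is not given for these settings. With the values as deposited 6 members had such a p, beside 3062 of all 11969 genes tested. Gstp1 has no value with reference transcripts named by identifier, because its transcript was placed by exons. Leaving out 1 library gave 3 to 179 genes and 0 members, whose fits rest on fewer samples. The cause of the other changes was not tested. The block changed no other member's call. The log2 difference of Mgst3 was 0.025 with median-of-ratios scaling and ran from -0.56 to 0.14 with 1 library left out, and that of Gstp1 ran from -0.080 to 0.305. The other 7 tested members kept their sign in all 17 alternatives. Gstt1 lies too low for any statement at this depth.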
